A study of Mus musculus with 12 samples.

Results

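The genes for voltage-gated sodium channels, potassium channels and pacemaker channels were followed through mouse hearts labelled either as noninduced or as knocked out for the ubiquitin ligase Parkin. Members were all rows of the deposited count table whose symbol begins with Kcn or with Scn and a digit, or is Hcn and a digit from 1 to 4, and 113 of 23457 rows met that rule. Besides the pore-forming subunits the rule takes accessory subunits (the Scn beta, Kcne, Kcnab, Kcnip and Kcnmb genes), the silent subunits Kcnf, Kcng, Kcns and Kcnv, the long noncoding RNA Kcnq1ot1 and the regulator Kcnrg.

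RNA was measured in 6 hearts called noninduced and 6 called Parkin KO, all adult, on the C57BL/6J background, and all labelled as taken 9 to 10 weeks after tamoxifen. By their labels the noninduced hearts carried the floxed gene without Cre, which Esr1 levels below go against for 2 of them. The Parkin KO hearts are labelled as carrying the floxed gene and the tamoxifen-inducible Cre named MERCreMer, and the labels do not name the promoter that drives it. Since the labels give MERCreMer to the Parkin KO group alone, effects of Parkin loss and of MERCreMer cannot be told apart. The tissue is labelled as whole heart, but the protocol describes the ventricular apex. In bulk tissue, fewer cells of a type and less RNA per cell cannot be told apart.

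In a cardiomyocyte the sodium current starts the action potential, and potassium currents end it and set the resting potential. The transient outward current gives the early repolarisation, which is large in mouse ventricle, and delayed rectifiers carry the later phase. Inward rectifiers hold the resting potential, ATP-sensitive channels couple it to metabolism, and the hyperpolarisation-activated Hcn channels drive pacemaking in nodal cells.

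Libraries held 11610507 to 16884516 counts, so that 3 counts, the limit set by a count of 0, corresponded to 0.178 to 0.258 CPM (counts scaled to library size). This limit and the read counts carry counting error only. The targeted gene, Park2, had 24 to 45 reads in the noninduced libraries and 24 to 45 in the Parkin KO libraries (log2 fold change -0.05 ± 0.21 SE, edgeR quasi-likelihood test, adjusted p = 0.93). Which exons are floxed is not given in the sources used here, and reads outside the deleted part check nothing. Esr1, whose ligand-binding domain is part of MERCreMer, stood at 1567 to 4711 CPM in all 6 Parkin KO libraries. In the noninduced libraries it stood at 24.9 to 70.1 CPM, except at 493 CPM in the library labelled noninduced 1 and 936 CPM in the library labelled noninduced 3, which goes against a label without Cre. Parkin KO 2, 5 and 6 had a male pattern of Xist and Y-linked reads, the library labelled noninduced 3 a mixed pattern with 178 Y-linked reads, and the other 8 libraries a female pattern. The atrial markers of a list of 7 genes summed to 1800 CPM in noninduced 2, 2680 CPM in noninduced 5 and 292 CPM in noninduced 4, against 31.0 to 128 CPM in the other 9 libraries. Noninduced 6 stood apart in stress genes, as given below with the channel genes that stood apart in it.

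Levels of the channel genes ran from no reads to a median of 177 FPKM in these hearts. Levels between genes were compared per transcript length, on the deposited FPKM scale (fragments scaled to transcript length and library size). By their median over the noninduced libraries, 34 of the 113 members reached 1 FPKM, 16 of them 10 FPKM, 35 lay between 0.1 and 1 FPKM, and 44 lay under 0.1 FPKM. There was no read in any library for 9 members, among them Kcne2 and Kcnk9, which allows at most 3 counts in each library. Of the 34 at 1 FPKM or more, 33 also reached that level in the Parkin KO hearts. The exception was Kcnj16, an inward rectifier subunit named here after its values were seen. It stood at a median of 1.01 FPKM in noninduced and 0.789 FPKM in Parkin KO hearts, with 1 to 8 reads in a library. By reads per kilobase of merged exon its noninduced median was 0.0459, and 30 of the 113 members reached 1 on that scale.

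Kcnk3 had the highest level of all members. It encodes a background potassium channel of the tandem-pore family, and its lowest, median and highest FPKM were 118, 177 and 216 in the noninduced hearts and 137, 169 and 194 in the Parkin KO hearts. Kcnip2, the accessory subunit of the transient outward channel, followed at 108, 129 and 151 FPKM in noninduced and 127, 142 and 157 FPKM in Parkin KO hearts. By median in noninduced hearts Kcnj11, the pore of the ATP-sensitive channel, stood at 103 FPKM, the silent subunit Kcng2 at 58.8 FPKM and Kcnh2, the rapid delayed rectifier, at 34.6 FPKM. Over all libraries the FPKM range of Kcnk3 overlapped with that of Kcnip2, and that of Kcnip2 with that of Kcnj11. Within every single library, however, Kcnk3 lay above Kcnip2, and Kcnip2 above Kcnj11, by FPKM.

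**Figure D1:**
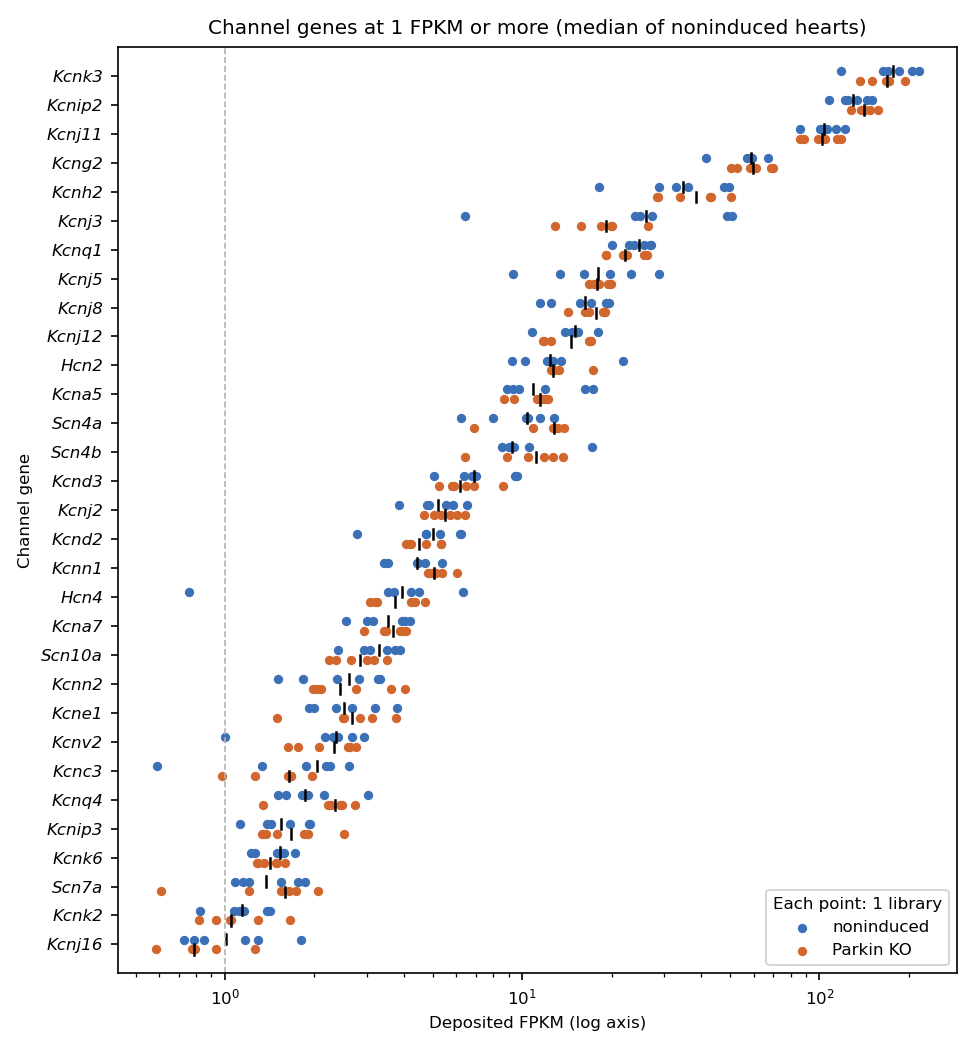
Deposited FPKM (log axis) of 31 channel genes with a noninduced median of 1 FPKM or more, 1 point per library (6 noninduced, 6 Parkin KO), with a tick at each group's median. Kcnk3 stands highest at a median of 177 FPKM in noninduced hearts, and the groups overlap for every gene shown.

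No channel gene passed the test between Parkin KO and noninduced hearts. By edgeR (quasi-likelihood F test, p-values adjusted after Benjamini and Hochberg), 0 of the 57 members with enough reads were called, beside 0.0% of all 13050 genes tested. DESeq2 called 0 of the 57 members and 0.0766% of all genes, and limma-voom called none of either. At an unadjusted p under 0.05 stood 2 of the 57 members (3.51%), against 11.4% of all genes. Kcnn1 was the one on the higher side in Parkin KO hearts, where 5.82% of all genes stood, and Kcnn3 the one on the lower side, where 5.54% stood. DESeq2 placed 3 members under that p and limma-voom 2, for which the share over all genes is not given here. No member had groups that did not overlap in CPM, which 0.345% of all genes had. Fitted log2 fold changes were above 0 for 21 members and below 0 for 36, with a median of -0.06 against 0.01 over all genes.

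The intervals give the size of difference that these hearts could hide. For 32 of the 33 tested members at 1 FPKM or more, the approximate 95% confidence interval of the fold change lay within a 2-fold difference either way, and for 27 of the 33 within 1.5-fold. Over all 57 tested members these counts were 44 and 28. The median distance from estimate to interval end was 0.385 on the log2 scale for the members at 1 FPKM or more, and 0.286 over all genes tested.

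**Figure D2:**
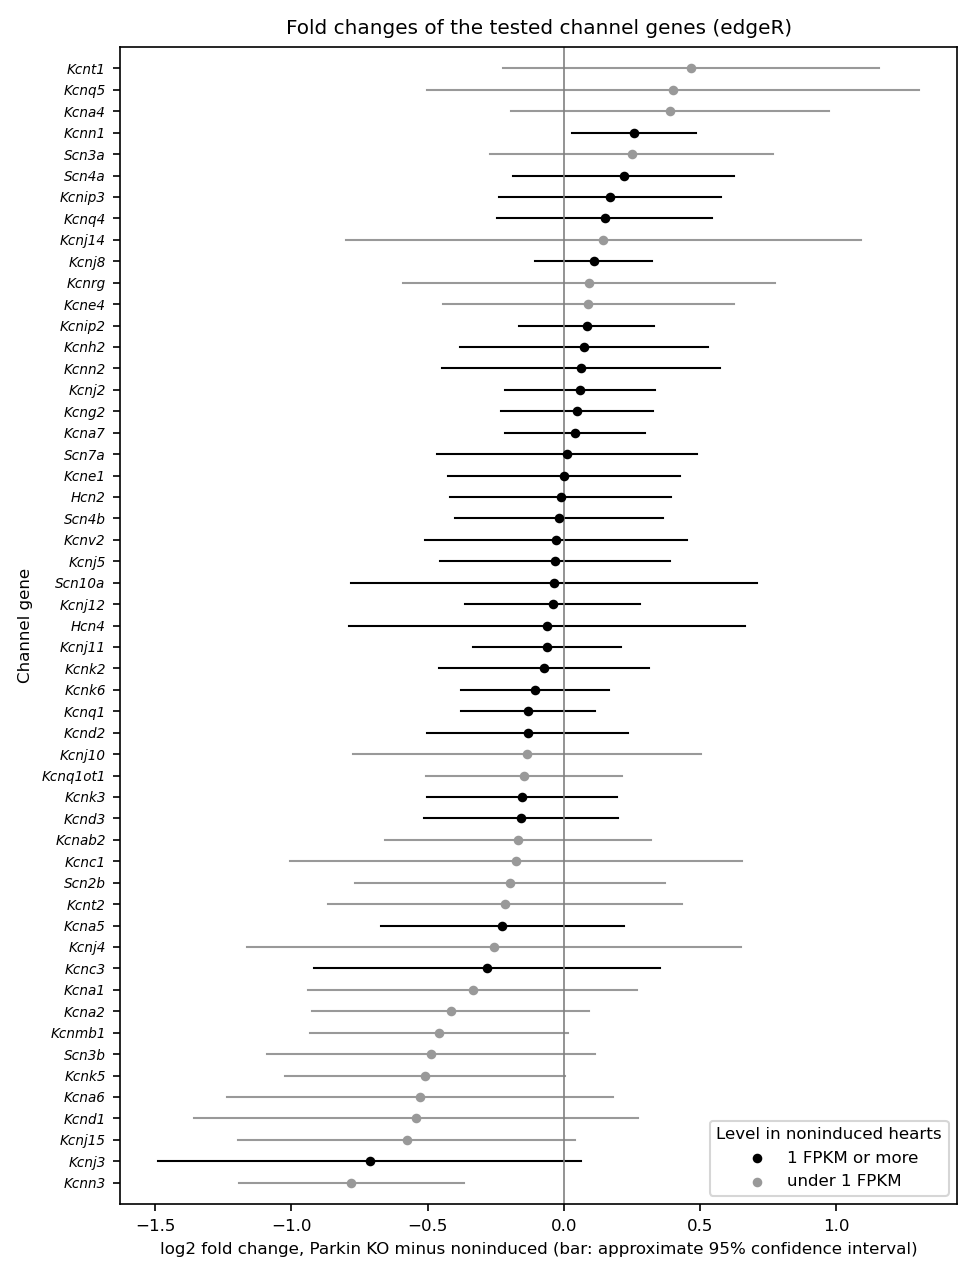
Fitted log2 fold change (Parkin KO minus noninduced) of 53 tested channel genes with its approximate 95% confidence interval, in black for genes at 1 FPKM or more in noninduced hearts and grey for lower ones. Among the genes shown, the intervals of Kcnn1 (0.26) and Kcnn3 (-0.78) alone leave out 0 before any correction for the number of genes tested.

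No sodium channel gene passed the test. Of the 10 alpha subunit genes 5 were tested, 4 of which had a fold change above 0 and none an unadjusted p under 0.05. Scn4a, the skeletal muscle sodium channel, stood at 10.4 FPKM in noninduced and 12.8 FPKM in Parkin KO hearts (log2 fold change 0.22 ± 0.19 SE, adjusted p = 0.63, edgeR). All 4 beta subunit genes, which modulate gating and adhesion, had fold changes below 0, from -0.49 to -0.02, with no unadjusted p under 0.05.

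The genes of the transient outward current did not separate the groups either. Kcnd2, a pore-forming subunit of this current in mouse ventricle, ran from 11.9 over a median of 24.2 to 29.6 CPM in noninduced and from 18.4 over 20.4 to 25.5 CPM in Parkin KO hearts. Its lowest value was in noninduced 6, and the other 5 noninduced libraries lay at 22.8 to 29.6 CPM. The log2 fold change was -0.13 ± 0.17 (SE, adjusted p = 0.754, edgeR), and -0.28 without noninduced 6. Its partner Kcnip2 gave 0.08 ± 0.12 (SE, adjusted p = 0.772), and Kcnd3, a second pore-forming subunit, gave -0.16 ± 0.17 (SE, adjusted p = 0.694). The FPKM of Kcnd3 exceeded that of Kcnd2 by a median of 1.49-fold in noninduced hearts, but reads per kilobase of merged exon put the ratio at 0.457, so that the order of the pair depends on the length used. Kcna4, the slowly recovering transient outward channel, was low at 0.363 FPKM in noninduced and 0.513 FPKM in Parkin KO hearts (log2 fold change 0.39 ± 0.27 SE, adjusted p = 0.559).

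The promoter of Kcnip2 is shown because it is the most abundant member with an entry in the RefSeq promoter table (build GRCm38.p6, 250 bases before to 50 after the start). It lies on the minus strand at chr19:45816014-45816313, with CpG pairs in capitals, and holds 18 of them at a GC content of 67.0%. Kcnk3 is not shown.

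Kcnip2: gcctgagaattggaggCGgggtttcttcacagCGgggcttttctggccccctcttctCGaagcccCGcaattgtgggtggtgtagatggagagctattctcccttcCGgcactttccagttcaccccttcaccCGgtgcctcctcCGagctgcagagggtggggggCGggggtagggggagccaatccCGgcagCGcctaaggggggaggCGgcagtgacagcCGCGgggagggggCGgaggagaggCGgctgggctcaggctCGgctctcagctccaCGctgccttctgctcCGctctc

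Of the 113 members, 82 matched an entry, taken at the first start listed. Their median GC content was 58.0%, against 52.7% over the 27025 genes of the table. The letters TATAAA, searched on both strands, occurred in 3 of the 82 windows (3.66%), in 0 of the 21 of members at 1 FPKM or more, and in 14.2% of all genes. The letters AGGTGT, a core bound by T-box factors, occurred on either strand in 15.9% of the member windows and 13.9% of all genes. These letter counts are a description of the windows, and both motifs were picked after the expression values were seen.

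Among the delayed rectifiers, Kcnq1 was one of the 2 marker genes of the set. It encodes the slow delayed rectifier and had its lowest, median and highest at 51.1, 68.5 and 79.8 CPM in noninduced and 50.3, 61.7 and 73.8 CPM in Parkin KO hearts. Its log2 fold change was -0.13 ± 0.12 (SE, adjusted p = 0.633, edgeR), and 0.02 in the libraries of female pattern alone. Kcne1, its accessory subunit, stood at a median of 2.51 FPKM in noninduced and 2.67 FPKM in Parkin KO hearts, and Kcnq1 exceeded it by a median of 9.87-fold and 7.89-fold by FPKM. Kcnh2 had a log2 fold change of 0.07 ± 0.21 (SE, adjusted p = 0.899). Of the 16 genes of the fast delayed rectifiers and their beta subunits 9 were tested, 8 of which had fold changes below 0, and none had an unadjusted p under 0.05. Kcna5, a carrier of repolarising current in mouse ventricle, stood at 10.9 FPKM in noninduced hearts, with a log2 fold change of -0.23 ± 0.21 (SE, adjusted p = 0.649). Kcna5 was highest in noninduced 1 and 2, at 56.5 and 51.3 CPM, against 23.7 to 35.7 CPM in the other 10 libraries. Those 2 libraries also had the highest share of mitochondrial reads, 16.0% and 16.7% against 5.17% to 10.5% elsewhere, whose part was not tested.

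No inward rectifier passed the test. Kcnj2, the other marker gene and a main subunit of the resting potassium current in ventricle, had its lowest, median and highest at 19.3, 29.2 and 34.3 CPM in noninduced and 25.3, 29.5 and 36.5 CPM in Parkin KO hearts. Again noninduced 6 was the lowest, and the log2 fold change was 0.06 ± 0.13 (SE, adjusted p = 0.862, edgeR), which became -0.04 without it. Kcnj12, which encodes another subunit of the same current, exceeded Kcnj2 by a median of 2.78-fold in noninduced and 2.55-fold in Parkin KO hearts by FPKM. Kcnj11 and Kcnj8, the pore genes of the ATP-sensitive channels of cardiomyocytes and of vascular cells, had log2 fold changes of -0.06 ± 0.13 and 0.11 ± 0.10 (SE, adjusted p = 0.851 and 0.648). The low Kcnj15, an inward rectifier best known from other organs, averaged 1.90 ± 0.788 CPM over the noninduced and 1.27 ± 0.354 CPM over the Parkin KO libraries (SD, n = 6 each, log2 fold change -0.58 ± 0.29 SE, adjusted p = 0.447, edgeR).

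Kcnj3 was the abundant member with the largest fitted difference. It encodes a subunit of the acetylcholine-activated potassium channel, which in the heart is best known from atrial and nodal cells. Its lowest, median and highest were 9.20, 42.5 and 85.4 CPM in noninduced and 19.5, 29.1 and 42.7 CPM in Parkin KO hearts, so that the Parkin KO values lay inside the noninduced range. The log2 fold change was -0.71 ± 0.36 (SE, adjusted p = 0.448, edgeR), and all 6 Parkin KO libraries lay under the noninduced mean. The highest values, 85.4 and 70.0 CPM, came from noninduced 2 and 5, which also held the most atrial marker RNA. Without those 2 libraries the log2 fold change was -0.17 (adjusted p = 0.889), and -0.12 (adjusted p = 0.909) without noninduced 4 as well. Without noninduced 6, the lowest library, it was -0.94 (adjusted p = 0.297). All 7 atrial markers had fold changes below 0 and an unadjusted p under 0.05, none passed after adjustment, and their part in the Kcnj3 difference beyond these values was not tested. Of the exon bases of Kcnj3 31.1% overlap the noncoding gene Gm26794 on the opposite strand, and the libraries were not strand-specific, so that reads there cannot be told apart. Kcnj5, the other subunit of this channel, had a log2 fold change of -0.03 ± 0.20 (SE, adjusted p = 0.95) in all libraries and 0.21 without noninduced 2 and 5.

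The tandem-pore family had 4 tested genes of 14, all with fold changes below 0 and none with an unadjusted p under 0.05. Kcnk3 had a log2 fold change of -0.15 ± 0.16 (SE, adjusted p = 0.692, edgeR). Its highest libraries were noninduced 1 and 2, at 879 and 815 CPM, and its lowest was noninduced 6 at 392 CPM. Kcnk5, an acid- and volume-sensitive background channel, was low at 0.351 FPKM in noninduced and 0.266 FPKM in Parkin KO hearts (log2 fold change -0.51 ± 0.24 SE, adjusted p = 0.438), and its difference was -0.31 without noninduced 2 and 5.

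The 2 members under an unadjusted p of 0.05 were both small-conductance calcium-activated potassium channels, which open on calcium bound to calmodulin. Kcnn3 had lower values in Parkin KO hearts, short of the threshold after adjustment. Its lowest, median and highest were 3.12, 4.63 and 5.21 CPM in noninduced and 1.60, 2.48 and 3.21 CPM in Parkin KO hearts, with 25 to 85 reads in a library. The ranges overlap only where noninduced 6 (3.12 CPM) lies under Parkin KO 4 (3.21 CPM), and no Parkin KO library reached the noninduced mean. The log2 fold change was -0.78 ± 0.19 (SE, adjusted p = 0.417, edgeR), and DESeq2 gave an adjusted p of 0.105, the smallest of any member under any setting. It was -0.87 (adjusted p = 0.297) without noninduced 6, -0.87 (adjusted p = 0.432) without noninduced 1 and 3, -0.66 (adjusted p = 0.655) without noninduced 2 and 5, -0.52 (adjusted p = 0.355) without noninduced 2, 4 and 5, and -0.65 (adjusted p = 0.844) in the libraries of female pattern alone.

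Kcnn1 had slightly higher values in Parkin KO hearts, again short of the threshold. The noninduced libraries ran from 15.0 over a median of 16.4 to 21.5 CPM. The Parkin KO libraries ran from 18.6 over a median of 19.5 to 24.9 CPM. The groups overlap through noninduced 3 alone, which at 21.5 CPM lay above 5 of the 6 Parkin KO libraries, and all 6 Parkin KO libraries lay above the noninduced mean. The log2 fold change was 0.26 ± 0.11 (SE, adjusted p = 0.424, edgeR). It was 0.30 (adjusted p = 0.524) without noninduced 1 and 3, and 0.18 without Parkin KO 2, its highest library. By level Kcnn1 stood above Kcnn3, at a noninduced median of 4.44 against 0.557 FPKM, and Kcnn2 lay between them at 2.61 FPKM with a log2 fold change of 0.06 ± 0.24 (SE, adjusted p = 0.923).

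The RefSeq promoters of this pair are shown because they belong to the members with the smallest unadjusted p in each direction. That of Kcnn1 lies on the minus strand at chr8:70863209-70863508 and is the first of 2 starts listed. That of Kcnn3 lies on the plus strand at chr3:89519914-89520213, both in build GRCm38.p6 with CpG pairs in capitals. They hold 13 and 11 CpG pairs at a GC content of 62.3% and 57.7%, and neither holds TATAAA or AGGTGT.

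Kcnn1: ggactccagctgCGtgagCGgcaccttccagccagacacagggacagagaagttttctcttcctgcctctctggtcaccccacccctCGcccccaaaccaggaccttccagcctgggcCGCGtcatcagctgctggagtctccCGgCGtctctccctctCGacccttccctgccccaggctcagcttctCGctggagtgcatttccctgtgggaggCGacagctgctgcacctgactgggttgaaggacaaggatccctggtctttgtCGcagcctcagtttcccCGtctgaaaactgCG

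Kcnn3: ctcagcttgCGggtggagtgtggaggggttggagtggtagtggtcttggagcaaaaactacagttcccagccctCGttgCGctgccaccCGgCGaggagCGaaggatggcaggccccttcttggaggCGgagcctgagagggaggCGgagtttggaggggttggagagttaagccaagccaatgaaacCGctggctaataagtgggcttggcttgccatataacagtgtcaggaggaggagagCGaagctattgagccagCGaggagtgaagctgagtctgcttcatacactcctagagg

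Of the 12 calcium- and sodium-activated genes 6 were tested, 3 with fold changes above 0 and 3 below. Kcnmb1, the smooth muscle beta subunit of the large-conductance channel, had a log2 fold change of -0.46 ± 0.22 (SE, adjusted p = 0.438, edgeR) that was -0.15 without noninduced 2 and 5. These 2 libraries were its highest, at 4.36 and 3.97 CPM, and also gave the second highest and highest summed smooth muscle markers, 753 and 804 CPM against 440 to 704 CPM elsewhere. The part of those markers in the difference was not tested further. Kcnt1, a sodium-activated channel at 0.206 FPKM in noninduced and 0.258 FPKM in Parkin KO hearts, had a log2 fold change of 0.47 ± 0.32 (SE, adjusted p = 0.555).

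Among the pacemaker channels, Hcn2, the main form of ventricle, was the most abundant at 12.4 FPKM in noninduced and 12.7 FPKM in Parkin KO hearts (log2 fold change -0.01 ± 0.19 SE, adjusted p = 0.983, edgeR). Its sign turned to 0.29 without noninduced 1 and 3 and to 0.25 in the libraries of female pattern alone. Hcn4, the main form of the sinoatrial node, stood at 3.95 and 3.74 FPKM (log2 fold change -0.06 ± 0.34 SE, adjusted p = 0.948), and its sign turned to 0.32 without noninduced 1 and 3.

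**Figure D3:**
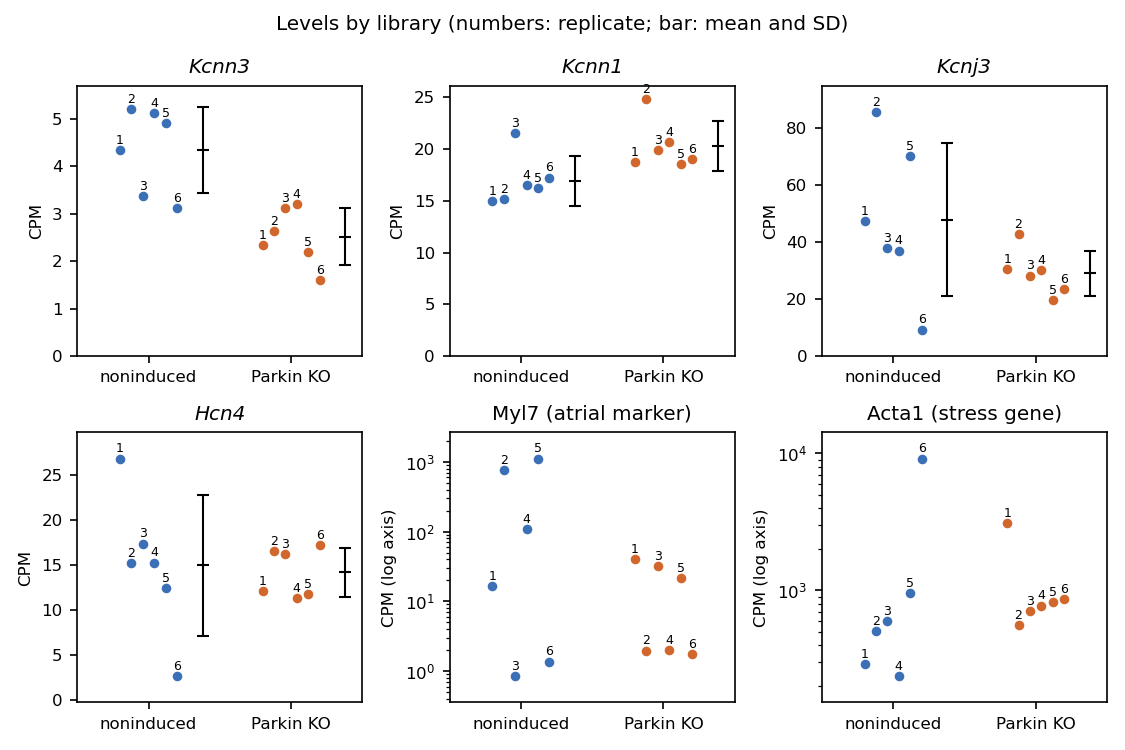
CPM by library for Kcnn3, Kcnn1, Kcnj3 and Hcn4 (linear axes, mean and SD of 6 libraries per group beside the points) and for the atrial marker Myl7 and the stress gene Acta1 (log axes), with replicate numbers at the points. Noninduced 2 and 5 are highest for Kcnj3 (85.4 and 70.0 CPM) and Myl7, and noninduced 6 is lowest for Kcnj3 (9.20 CPM) and highest for Acta1 (9160 CPM).

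The silent subunits, which form channels only together with other potassium channel subunits, had 2 tested genes of 10. Kcng2 gave 0.05 ± 0.13 (SE, adjusted p = 0.893, edgeR) on the log2 scale. Of the 11 Kcnh and Kcnq genes outside the cardiac delayed rectifiers 2 were tested, both with fold changes above 0 and neither with an unadjusted p under 0.05.

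The library noninduced 6 stood apart in its channel genes, a pattern seen only after the values were at hand. Noninduced 6 was the lowest of the 12 libraries for 26 of the 57 tested members (45.6%) and the highest for 7 (12.3%). Over all 13050 tested genes it was the lowest for 13.9% and the highest for 12.3%. The count of 26 became 24 with library totals in place of TMM factors and 20 on the deposited FPKM, and it covered 19 of the 33 tested members at 1 FPKM or more. Its median deviation from the mean of the 12 libraries was -0.44 on the log2 scale for those 33 members and 0.00 over all genes. In the other 11 libraries that median lay between -0.11 and 0.19.

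**Figure D4:**
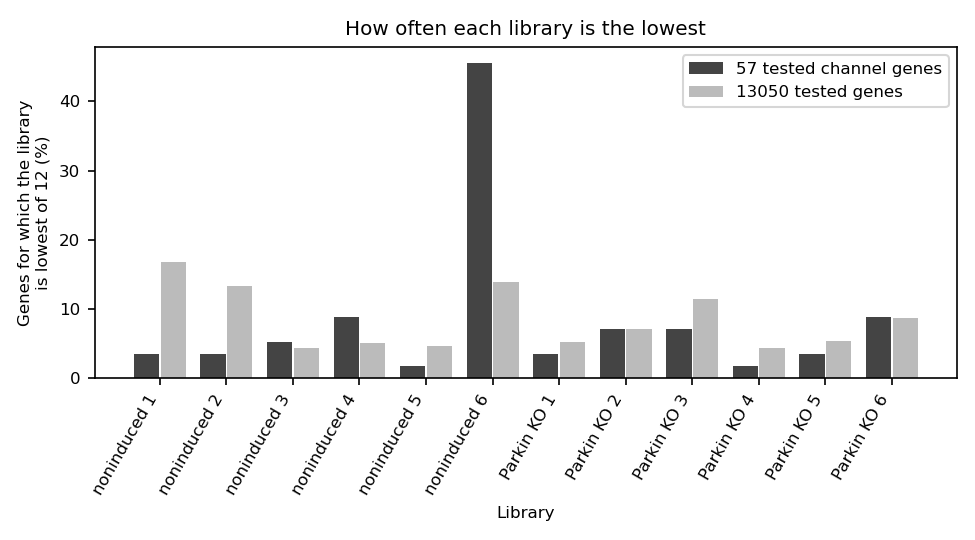
Share of genes (%) for which each of the 12 libraries is the lowest, for the 57 tested channel genes (dark bars) and all 13050 tested genes (light bars). Noninduced 6 is the lowest library for 45.6% of the channel genes and 13.9% of all genes.

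The low members of noninduced 6 came from most current groups. Hcn4 stood at 2.63 CPM there and at 11.3 to 26.8 CPM in the other 11 libraries. Kcnj3, Kcnj5 (38.6 CPM against 67.3 to 120.5 CPM elsewhere), Kcnh2 (70.7 CPM against 116.5 to 209 CPM), Kcnd2, Kcnk3, Kcnip2, Kcnj2, Kcnj11 and Kcnj12 were likewise lowest in it. Kcnv2, a silent subunit, stood at 4.71 CPM there. Scn10a, a sodium channel best known from sensory neurons, stood at 0.438 CPM from 8 reads, against 1.77 to 4.62 CPM elsewhere. On the deposited FPKM Scn10a was not lowest there, at 2.39 against 2.24 and 2.37 in Parkin KO 5 and 6. Both genes are named after their values were seen.

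The members highest in noninduced 6 included the sodium channel beta subunits Scn3b and Scn4b. The beta subunit Scn2b went the other way and was lowest in noninduced 6, at 1.04 CPM against 1.15 to 3.03 CPM elsewhere. Scn4b stood at 67.2 CPM there and at 28.2 to 56.2 CPM in the other 11 libraries. Kcnc1, a fast delayed rectifier of neurons, stood at 15.8 CPM against 1.99 to 7.07 CPM, and Kcnj14, an inward rectifier, at 3.01 CPM against 0.568 to 2.75 CPM, both named after their values were seen.

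**Figure D5:**
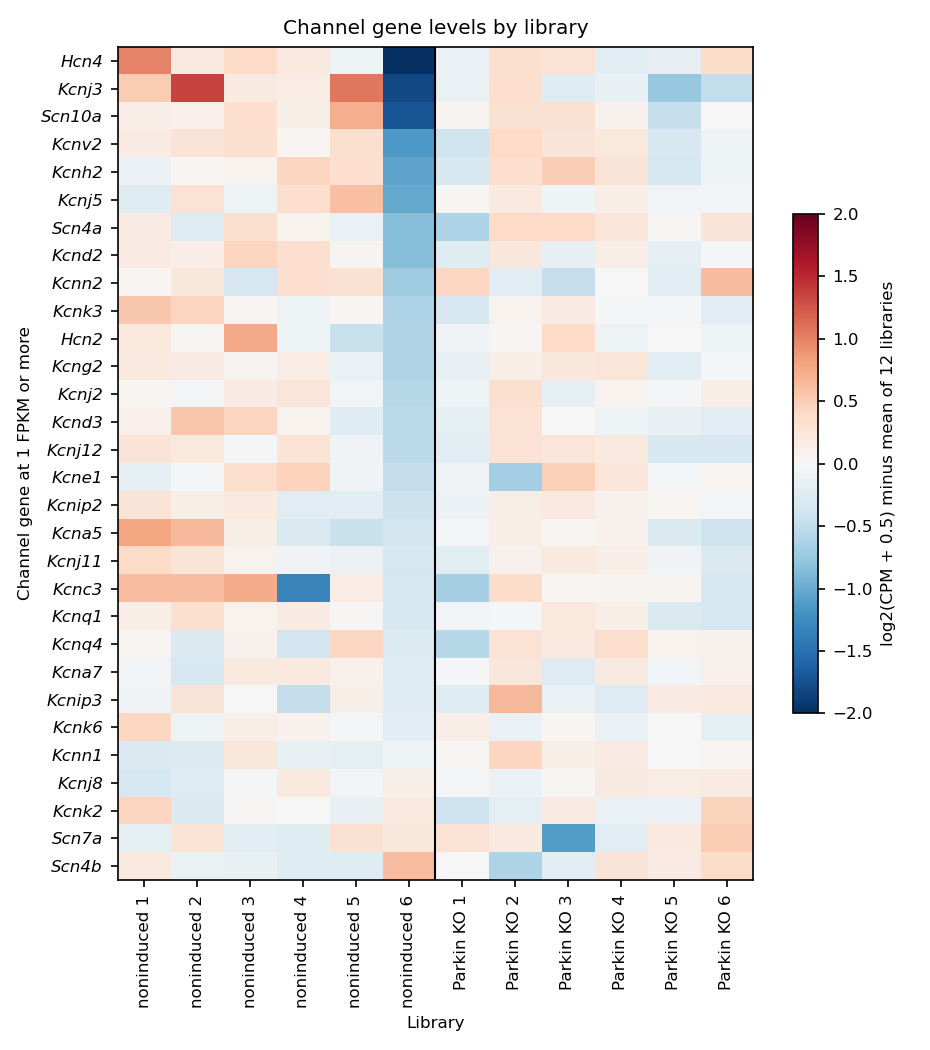
Level of 30 tested channel genes at 1 FPKM or more in each of the 12 libraries, as log2(CPM + 0.5) minus the gene's mean over the libraries, with genes ordered by their value in noninduced 6 (colours end at -2 and 2). The noninduced 6 column runs from Hcn4, at 2.63 CPM, to Scn4b, at 67.2 CPM, and is the lowest library for 18 of the 30 genes.

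The same library was the highest for genes that mark a strained or failing heart, a list drawn up with earlier results of these data known. Acta1, the skeletal actin of the fetal heart, stood at 9160 CPM in noninduced 6 against 236 to 3080 CPM in the others. Myh7, the slow myosin, stood at 6460 CPM against 316 to 3910 CPM, the natriuretic peptide gene Nppb at 613 CPM against 58.3 to 366 CPM, and the stress cytokine Gdf15 at 28.0 CPM against 1.17 to 12.1 CPM. Its 7 ventricular markers summed to 45500 CPM, the lowest of all libraries, where the others ran from 58200 to 81800 CPM. Of those markers Myh6, Tnni3, Tnnt2 and Ryr2 were lowest in it, and Myl2, Actn2 and Irx4 were not. Marker sums of some other cells were also highest or lowest in noninduced 6, while single markers of each list differed. Fibroblast markers summed highest there, at 813 CPM against 418 to 757 CPM. Of these Col1a1 alone was highest, and Pdgfra, Dcn, Tcf21 and Lum were not. Pericyte markers summed to 569 CPM against 505 to 562 CPM, with Pdgfrb alone highest. Macrophage markers summed to 132 CPM against 89.9 to 126 CPM. Of these C1qa was highest, Cd68 was level with noninduced 1, and Csf1r and Mrc1 were not highest. Nerve markers were lowest, at 6.90 CPM against 9.48 to 26.2 CPM. So were nodal markers, at 29.0 CPM against 36.9 to 73.0 CPM, and conduction markers, at 23.5 CPM against 24.2 to 76.0 CPM. Fat cell markers summed to 0.109 CPM there and 0.142 to 6.82 CPM elsewhere, with 0 of the 4 tested. Sums under the limit of 0.178 to 0.258 CPM set by a count of 0 cannot be ranked. The part of these markers in the low channel genes was not tested. Parkin KO 1 was second for Acta1, Nppb, Gdf15 and Ankrd1, but not for Myh7 and Nppa. For Myh7 it stood at 2640 CPM, under Parkin KO 5 and 6 at 3430 and 3910 CPM. For Nppa it stood at 1450 CPM, under noninduced 2 and 5 at 1770 and 3600 CPM. Parkin KO 1 was among the 4 lowest of the other 11 libraries for 19 of the 26 members lowest in noninduced 6 (73.1%), against 60.8% of all genes lowest in noninduced 6.

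The choice of noninduced hearts bore on the counts of channel genes and of all genes. Without noninduced 6 the share of all genes under the unadjusted threshold went from 11.4% to 14.4%. That of the members went from 3.51% to 14.0%, near the share of all genes, and still none passed after adjustment. Under an unadjusted p of 0.05 then stood 8 of 57 members (14.0%), beside 14.4% of all genes, and 7 of the 8 were lower in Parkin KO hearts, where 8.2% of all genes stood. Among the 7 were Kcnn3 (-0.87 ± 0.19), Kcnj3 (-0.94 ± 0.23), Kcna1 (-0.55 ± 0.18), Kcna2 (-0.57 ± 0.21), Kcnd2 (-0.28 ± 0.11) and Kcnk5 (-0.59 ± 0.25), as log2 fold changes with SE, and the smallest adjusted p was 0.297. Kcna1 and Kcna2, delayed rectifiers best known from neurons, are named after their values were seen. Noninduced 6 was the lowest library for Kcnj3, Kcna1, Kcna2 and Kcnd2, so that leaving it out lowers their fold changes by itself. The median over the 57 members moved from -0.06 to -0.14.

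Genes that anchor, traffic or regulate these channels were followed as a list of 38 partners, of which 34 were tested and 0 called. At an unadjusted p under 0.05 stood 1 on the higher and 4 on the lower side, where 5.82% and 5.54% of all genes tested stood. The desmosome gene Pkp2 (log2 fold change 0.20 ± 0.08 SE, adjusted p = 0.424, edgeR) and Gpd1l (0.16 ± 0.07 SE, adjusted p = 0.438), which affects sodium channel trafficking, had the smallest p on the higher side. On the lower side these were Etv1 (-0.48 ± 0.16 SE, adjusted p = 0.417), a factor of fast-conducting myocardium, and Fgf11 (-0.65 ± 0.24 SE, adjusted p = 0.424), of the factors that bind sodium channels. The partner count under that p went from 5 to 2 without noninduced 2, where 7.1% of all genes came under it, and to 3 without noninduced 5, where 12.4% did. It was 10 without noninduced 4 (16.3% of all genes), and 2 without Parkin KO 4 (7.64%) or without Parkin KO 6 (7.2%).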

How the data were processed

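Libraries were made from polyadenylated RNA, single-end and without strand information, per the labels' protocols. The submitters' processing notes name TopHat2 2.0.10, Bowtie2, HTSeq, Cufflinks 2.1, DESeq and edgeR, and the build mm10. The deposited count table holds raw HTSeq counts per gene symbol. The deposited FPKM table holds FPKM per gene. Its columns were matched to hearts by group and number.

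Counts were tested with edgeR 4.0.16 (R 4.3.3; TMM, filterByExpr, quasi-likelihood F test, two-sided, group as the term, 12 libraries), with Benjamini-Hochberg adjustment over all 13050 tested genes and a threshold of 0.05. Every printed adjusted p without another tool named comes from that test. CPM are scaled by TMM factors, except for Park2, Esr1 and the sex pattern. DESeq2 1.42.0, limma 3.58.1 and other filters, scalings and sample choices served as alternatives. The code was tested on simulated data. The smallest adjusted p over all genes was 0.417.

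Positions and exon overlaps came from GENCODE M21 and promoters from RefSeq. Named members are a list of 21 cardiac current genes with both markers among them, the 5 of smallest p in each direction, the 10 of highest FPKM and any that passed, and of the partners the 2 of smallest p in each direction. Results for some of these genes are not reported here, and counts over all members include them. Members and lists were chosen with earlier results of these data known. The series' design counts each library as a separate heart. Replicate numbers did not pair the hearts, whose same-number correlations ran from -0.105 to 0.184.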

Additional observations from a re-analysis of the deposited data

Results flagged for a closer look

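Of 106 sets of 6 libraries (53 members in each group), 9 had a highest or lowest library set apart from the other 5 by a gap that was large against the whole range. Chance gives about 1 in 20 such sets. Noninduced 6 was the library set apart in 4 of the 9: Kcnab2 at 4.33 CPM, Kcnc1 at 15.8 CPM and Kcnj14 at 3.01 CPM above the others, and Kcnv2 at 4.71 CPM below them. Parkin KO 2 was set apart in 3, with Kcnd3 at 23.4 CPM and Kcnn1 at 24.9 CPM above the other Parkin KO hearts and Kcnj15 at 0.583 CPM below them. Hcn2 in Parkin KO 3 stood at 53.4 CPM against 38.2 to 41.5 CPM in the others of its group. Kcnn1 in the library labelled noninduced 3 reached 21.5 CPM, and its 5 fellow libraries reached at most 17.2 CPM.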

How the results depend on the processing

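No member was called under any of the 25 alternatives, and 15 of the 26 named members kept the sign of their fold change in all of them. Genes called over the whole table were 10 with DESeq2, 1 without noninduced 1 and 3, and 0 to 0 when each library was left out in turn. Members under an unadjusted p of 0.05, 2 in the reported fit, were 4 with RLE size factors, 4 with no low-count filter, 4 with limma on log2(FPKM + 0.1) and 5 without noninduced 1 and 3. The share over all genes in these settings is not given here, so that these counts cannot be read against it. Leaving out each library in turn gave from 1 of 57 members without noninduced 5 (12.4% of all genes) to 8 of 57 without noninduced 6 (14.4%). Between these were 6 of 56 without noninduced 4 (16.3%), 5 of 58 without noninduced 3 (10.5%) and 4 of 57 without Parkin KO 3 (9.84%). Their median fold change then ran from -0.14 to -0.03, and the count at 1 FPKM or more from 33 to 35. That count moved more with the scale and the limit. By reads per kilobase of merged exon, 30 of the 113 members reached 1, against 34 by FPKM. With the limit at 0.5 FPKM the count was 47, and at 2 FPKM it was 28. Partners under that p, 5 in the reported fit, were 1 with a sex term (which drops noninduced 3), 0 in female-pattern libraries, 2 without noninduced 2 and 5, 3 without noninduced 2, 4 and 5, and 2 to 10 when each library was left out. Only for libraries left out singly is the share over all genes given.

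Signs turned, on the log2 scale, as follows. With DESeq2 and with RLE factors Kcne1 was -0.01, and with a filter of 1 CPM Kcne1 was -0.01. With a sex term, and in female-pattern libraries, Kcnj2 was -0.02, Kcnq1 0.02, Kcnj12 0.04, Kcnj11 0.01 and Hcn2 0.25. These settings are not separate checks, since male-pattern libraries were all Parkin KO and noninduced 3 was dropped from both. The group difference then rests on noninduced 1, 2, 4, 5 and 6 against Parkin KO 1, 3 and 4. With limma on log2(FPKM + 0.1) and log2(FPKM + 1), Scn4b was 0.005 and 0.01, Kcnj5 0.07 and 0.06, Hcn2 0.07 and 0.06, and Hcn4 0.18 and 0.09. With limma-voom Kcnj5 was 0.05, Hcn2 0.05 and Hcn4 0.25. Without noninduced 1 and 3 Kcnj11 was 0.03, Hcn2 0.29 and Hcn4 0.32. Without noninduced 2 and 5 Kcne1 was -0.04 and Kcnj5 0.21, and without noninduced 2, 4 and 5 Kcnj12 was 0.06 and Kcnj5 0.42. When each library was left out in turn, Kcnj2 from -0.04 to 0.10, Scn4b from -0.11 to 0.12, Kcnh2 from -0.08 to 0.16, Kcne1 from -0.12 to 0.11, Kcnj12 from -0.14 to 0.02, Kcnj11 from -0.14 to 0.0012, Kcnj5 from -0.19 to 0.10, Hcn2 from -0.12 to 0.19, Hcn4 from -0.30 to 0.17 and Kcng2 from -0.06 to 0.10 crossed 0. The cause of these turns was not tested.

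The replicate number was also used as a block, which the pairing check did not bear out since only replicate 2 correlated best with its own number. With this block 0 genes were called, and Kcnj5 was 0.04, Hcn2 0.05 and Hcn4 0.08. An unadjusted p under 0.05 was then seen for 3 members and 4 partners. The share over all genes with the block is not given here, so that these 2 counts cannot be read against it. The count of members lowest in noninduced 6 was recomputed under alternatives chosen after seeing the data. Depth left 56 members with too few reads to test.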
